A study of Mus musculus with 9 samples.

Results

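The peroxide- and superoxide-removing enzymes of mouse splenic erythroblasts were described through 10 genes taken by symbol from a table of 20368: the peroxiredoxins Prdx1, Prdx2, Prdx3, Prdx4, Prdx5 and Prdx6, catalase (Cat), superoxide dismutase 1 (Sod1) and the glutathione peroxidases Gpx1 and Gpx4. All 10 were listed, and all 10 passed the filter of at least 1 FPKM in at least 3 libraries. FPKM counts fragments relative to transcript length and library size, so it is a level per length. The rule used the gene symbols and no measured value.

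RNA was sequenced from spleen cells of 4-week-old C57BL/6 mice in 3 groups of 3 libraries: Dhh knockout (Dhh-/-), Dhh heterozygous (Dhh+/-) and wildtype. Dhh encodes Desert hedgehog, a secreted signalling ligand. Cells were sorted as positive for CD71, the transferrin receptor, and for Ter119, an antigen of the erythroid lineage. The labels do not say how the null allele was made, whether it is carried by all cells, or whether the libraries of a group are separate mice. The p-values below therefore describe differences among these libraries and may reflect technical spread.

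The Dhh transcript had 0.0267 FPKM in heterozygous replicate 1 and a listed value of 0 in the other 8 libraries, too low to check the genotype labels. The CD71 part of the sort label fitted the data: Tfrc, the gene of CD71, was at 351 to 596 FPKM over the 9 libraries. The Ter119 part was not checked. Markers of other blood cells were present too, such as the B cell marker Cd74 at 49.6 to 751 FPKM and the neutrophil marker S100a9 at 101 to 539 FPKM. Reads recovered from the values ranged from 7.05 to 14.23 M per library. Of these, 4 libraries were shallower, at 7.05 to 9.66 M (knockout replicate 2, heterozygous replicate 2, wildtype replicates 1 and 2), and the other 5 were deeper, at 13.05 to 14.23 M. The share of adult globin in the summed FPKM was 4.14 to 5.06% in shallower and 2.52 to 2.86% in deeper libraries. Wildtype replicate 3 stood apart in macrophage and lymphoid markers: its summed macrophage markers were at 137 FPKM, against 417 to 1402 FPKM in the other 8, its B cell markers at 91.4 FPKM, against 359.9 to 1451 FPKM, and its T and natural killer cell markers at 1.47 FPKM, against 55.1 to 159 FPKM. It did not stand apart in neutrophil markers (331 FPKM, against 259 to 1631 FPKM) or platelet markers (40.2 FPKM, against 33.7 to 54.5 FPKM).

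Superoxide dismutases turn superoxide into hydrogen peroxide, which catalase splits into water and oxygen. Peroxiredoxins reduce peroxides with a reactive cysteine that thioredoxin, or for Prdx6 glutathione, recharges. The glutathione peroxidases Gpx1 and Gpx4 use glutathione through a selenocysteine. Developing red cells carry iron, heme and haemoglobin, whose oxidation releases superoxide, and Prdx2, catalase and Gpx1 are the main peroxide scavengers of the mature mouse red cell. In mice, loss of Prdx2 or of Prdx1 causes haemolytic anaemia.

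The promoters of 4 of the genes are shown because these genes follow the libraries in different ways below: Cat and Gpx1 were higher, and Sod1 lower, in the shallower libraries, while Prdx1 went with none of these. The sequences are RefSeq, build GRCm38.p6, each on the strand of the gene, 5′ to 3′, and end just before the start of the gene. Capitals mark matches, on either strand, to GATAA (GATA factors), CCNCNCCC (a CACCC box as KLF1 binds), TGACNNNGC (the core of the antioxidant response element), TGANTCA (AP-1 type) and CCAAT.
Cat, chr2:103485161-103485403, minus strand: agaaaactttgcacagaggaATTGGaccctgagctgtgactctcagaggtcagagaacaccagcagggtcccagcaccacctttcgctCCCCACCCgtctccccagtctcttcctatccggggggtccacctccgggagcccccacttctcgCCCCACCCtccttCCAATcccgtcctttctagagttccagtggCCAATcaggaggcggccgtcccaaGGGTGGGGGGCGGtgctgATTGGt
Gpx1, chr9:108338830-108338902, plus strand: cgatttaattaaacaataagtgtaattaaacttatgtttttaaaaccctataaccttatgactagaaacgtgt
Sod1, chr16:90220512-90220753, plus strand: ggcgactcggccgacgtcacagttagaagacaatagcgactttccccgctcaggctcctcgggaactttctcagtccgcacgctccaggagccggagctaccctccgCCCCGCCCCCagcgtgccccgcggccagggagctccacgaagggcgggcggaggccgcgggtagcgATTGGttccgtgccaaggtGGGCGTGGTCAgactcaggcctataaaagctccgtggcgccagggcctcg
Prdx1, chr4:116685349-116685543, plus strand: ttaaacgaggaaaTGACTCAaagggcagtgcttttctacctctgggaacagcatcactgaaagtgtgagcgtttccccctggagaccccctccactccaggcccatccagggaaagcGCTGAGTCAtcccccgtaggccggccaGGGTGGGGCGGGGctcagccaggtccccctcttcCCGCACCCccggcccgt

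The Cat stretch held 4 CCNCNCCC and 4 CCAAT matches. That of Sod1 held 3 CCNCNCCC, 1 TGACNNNGC and 1 CCAAT, and that of Prdx1 held 3 CCNCNCCC, 1 TGACNNNGC and 2 TGANTCA, of which one overlaps the TGACNNNGC match. The Gpx1 stretch held none of the 5 motifs, and neither did the 250 bases of its RefSeq window. The stretches shown are 243 (Cat), 73 (Gpx1), 242 (Sod1) and 195 (Prdx1) bases long, shorter than the windows behind the shares that follow. Among 32851 promoter windows of 250 bases, 45.9% held CCNCNCCC, 33.8% CCAAT, 22.6% GATAA, 10.2% TGACNNNGC and 6.7% TGANTCA. RefSeq windows were found for 9 of the 10 genes (12 windows). A match describes the letters and not a site in use.

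The 10 genes spanned from the most abundant transcripts of these cells to modest ones, and took 1.42 to 1.76% of the summed FPKM of a library. Prdx2, the abundant cytosolic peroxiredoxin, ranked from 4 to 8 among all genes, and Gpx1, the cytosolic glutathione peroxidase, from 10 to 13. Cat, Sod1 and Gpx4 ranked between 59 and 185, and mitochondrial Prdx3 between 372 and 449. Prdx1, Prdx5, Prdx4 and Prdx6 lay between ranks 1030 and 3368.

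In all 9 libraries Prdx2 was above Gpx1, Gpx1 above Cat, Sod1 above Gpx4, Gpx4 above Prdx3, Prdx3 above Prdx1 and Prdx4 above Prdx6. Neighbours that changed places were Cat and Sod1 (Cat higher in 5 of 9), Prdx1 and Prdx5 (Prdx1 higher in 4 of 9), and Prdx5 and Prdx4 (Prdx5 higher in 8 of 9). These between-gene levels and the ranks rest on the transcript lengths the authors used. The length implied for Sod1 was 957 bases, against 3970 exonic bases in the GENCODE M21 gene. For Prdx2 it was 1391 against 3050, for Prdx5 1016 against 2139, for Cat 3766 against 2613 and for Gpx1 1543 against 1441. With other lengths the order of Prdx2 and Gpx1, or of Sod1 and Gpx4, could differ.

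**Figure D1:**
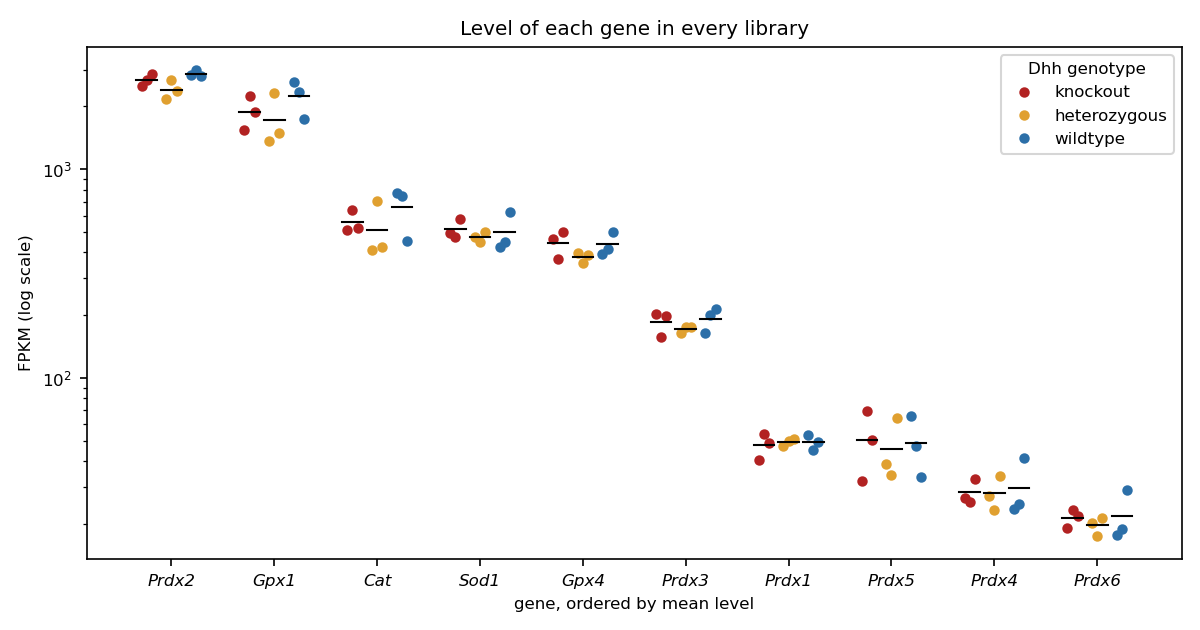
FPKM of each of the 10 genes in every library on a log axis, with knockout, heterozygous and wildtype libraries from left to right within each gene and the group mean as a short line. Prdx2 and Gpx1 sit highest, at 1359.9 to 2980.3 FPKM, and the points of the 3 groups overlap for every gene except Prdx2 between heterozygous and wildtype libraries.

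No gene passed the test between genotypes. By limma on log2(FPKM + 1), 0 of 9543 tested genes passed a Benjamini-Hochberg adjusted p of 0.05 in any of the 3 comparisons (a percentage called of 0 in each), and 0 of the 10 enzymes did. The lowest adjusted p over all genes was 0.9997 for knockout versus wildtype, 0.9999 for heterozygous versus wildtype and 0.9996 for knockout versus heterozygous. At an unadjusted p under 0.05 there were 43 genes (0.451%), 113 genes (1.18%) and 56 genes (0.587%) in the same order, and none of the 10 enzymes. Single libraries moved these counts. In knockout versus wildtype the count was 252 without knockout replicate 2, and 131, 86 and 227 without wildtype replicates 1, 2 and 3. In heterozygous versus wildtype it was 344 and 292 without wildtype replicates 1 and 3, and 62 without heterozygous replicate 1. In knockout versus heterozygous it was 499 and 29 without knockout replicates 2 and 3, 32 without heterozygous replicate 2 and 105 without wildtype replicate 3. Enzymes with an unadjusted p under 0.05 then appeared in 3 cases: Prdx2, Cat and Gpx1 in heterozygous versus wildtype without heterozygous replicate 2, Cat and Gpx1 in the same comparison without wildtype replicate 3, and Gpx4 in knockout versus heterozygous without knockout replicate 2. The lowest adjusted p by limma among these was 0.906. The count over all genes without heterozygous replicate 2 is not given here. Over all alternatives and left-out libraries, the count in heterozygous versus wildtype lay between 62 and 704 genes. The enzymes in these cases are a description and not an excess over all genes. The values of the groups did not overlap for 2.48% of tested genes in knockout versus wildtype (1.08% higher, 1.4% lower), where no enzyme was among them. In heterozygous versus wildtype the share was 4.36% (1.29% higher, 3.07% lower), with 1 of the 10 enzymes, and in knockout versus heterozygous it was 4.48% (2.61% higher, 1.88% lower), with none. The half-width of a 95% interval was 0.42 on the log2 scale for the median gene, so smaller differences were not resolved. That interval is not adjusted for the number of genes tested, so larger differences can go uncalled too. For Prdx5 it ran from -0.74 to 0.81 in knockout versus wildtype.

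Between knockout and wildtype, 7 of the 10 log2 differences were below 0 (median -0.04), where 47.3% of all tested genes were below 0 and the median was 0.0088. Between heterozygous and wildtype 9 of 10 were below 0 (median -0.13), against 50.6% of all tested genes and a median of -0.0020. Between knockout and heterozygous 1 of 10 was below 0 (median 0.12), against 48.9% and a median of 0.0037. The 2 last counts share the heterozygous libraries and the first 2 share the wildtype ones, so they are not separate results. Rescaling every library to the same summed FPKM moved the median of all genes by 0.12 in heterozygous versus wildtype, 0.06 in knockout versus wildtype and -0.07 in knockout versus heterozygous, and turned the direction of 4, 4 and 1 of the 10 enzymes in these comparisons.

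**Figure D2:**
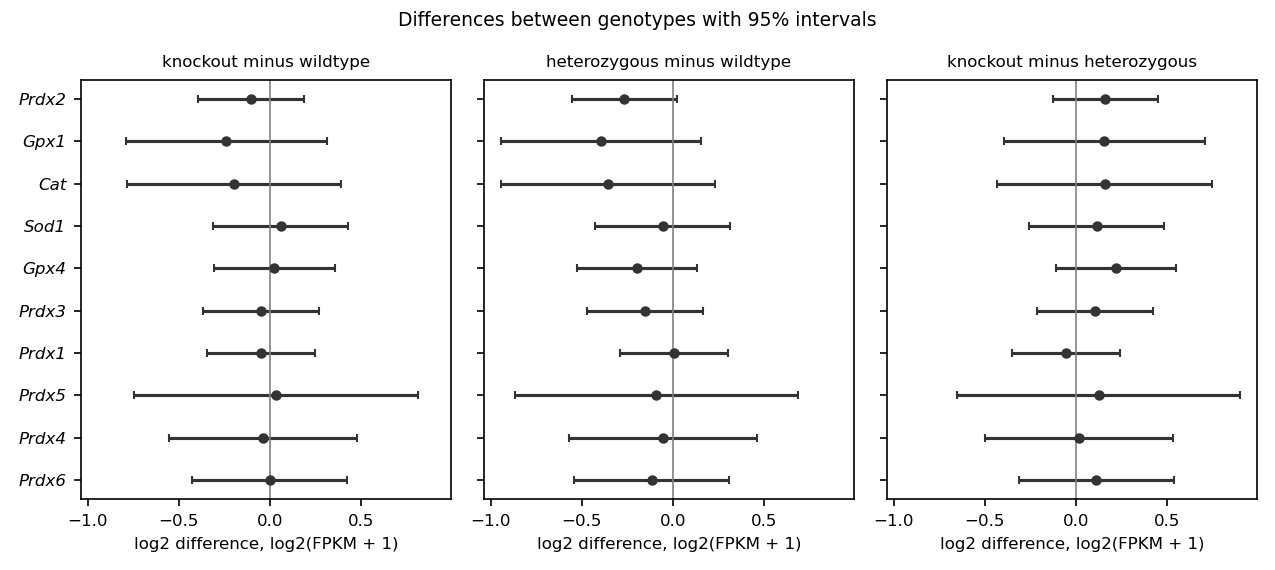
Log2 difference of each gene with its 95% interval from limma, for knockout versus wildtype, heterozygous versus wildtype and knockout versus heterozygous. Every interval crosses 0, and the interval of Prdx2 in heterozygous versus wildtype (-0.56 to 0.02) comes closest to leaving it out.

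Prdx2, which removes hydrogen peroxide in the red cell cytosol and lies at chr8:84969587-84974834 (mm10, plus strand), was the gene with the clearest gap between genotypes. It was at 2511, 2673 and 2859 FPKM in knockout, at 2165, 2674 and 2359.95 FPKM in heterozygous and at 2836, 2980.3 and 2812 FPKM in wildtype libraries. All 3 heterozygous libraries lay below all 3 wildtype ones, while knockout overlapped with both. Such a gap, lower in heterozygous, was found for 3.07% of all tested genes, as given above. The log2 difference of heterozygous from wildtype was -0.27 ± 0.13 (SE; limma, unadjusted p = 0.0678, adjusted p = 0.9999), that of knockout from wildtype -0.10 ± 0.13 and that of knockout from heterozygous 0.16 ± 0.13. Within the shallower libraries the heterozygous one was at 2674 FPKM, against 2836 and 2980.3 FPKM in wildtype, and within the deeper libraries the 2 heterozygous ones were at 2165 and 2359.95 FPKM, against 2812 FPKM in wildtype. The same summed FPKM in every library brought the heterozygous versus wildtype difference to -0.12, and quantile normalization turned its direction, to 0.03. Prdx2 shares 173 and 177 exonic bases with the opposite-strand genes Junb and Rnaseh2a, which were at 16.7 to 117 and 32.0 to 59.2 FPKM, and strand use in the counting is not given in the sources used here.

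Gpx1, the selenoenzyme that reduces hydrogen peroxide with glutathione (chr9:108338903-108340343, plus strand), was at 1547, 2236 and 1888 FPKM in knockout, at 1359.9, 2323 and 1488 FPKM in heterozygous and at 2605, 2353 and 1749 FPKM in wildtype libraries. The highest library of each group was one of the shallower ones, and the groups overlapped. The log2 difference was -0.24 ± 0.24 (95% interval -0.79 to 0.31) in knockout versus wildtype, -0.40 ± 0.24 (-0.95 to 0.15) in heterozygous versus wildtype and 0.16 ± 0.24 in knockout versus heterozygous.

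Cat, the peroxisomal enzyme that splits hydrogen peroxide (chr2:103453849-103485160, minus strand), was at 514, 639 and 526 FPKM in knockout, at 412, 705 and 427 FPKM in heterozygous and at 771, 746 and 452 FPKM in wildtype libraries. Its high and low libraries were those of Gpx1. The log2 difference was -0.20 ± 0.26 (-0.79 to 0.39) in knockout versus wildtype, -0.36 ± 0.26 (-0.95 to 0.23) in heterozygous versus wildtype and 0.16 ± 0.26 in knockout versus heterozygous. In the deeper libraries alone, Cat was at 514 and 526 FPKM in knockout, 412 and 427 FPKM in heterozygous and 452 FPKM in wildtype, so knockout was above wildtype there. In the shallower ones it was at 639 FPKM in knockout, 705 FPKM in heterozygous and 771 and 746 FPKM in wildtype, so knockout was below.

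Leaving out single libraries moved the uncalled values of both genes. Without heterozygous replicate 2 the heterozygous versus wildtype difference was -0.61 for Cat and -0.63 for Gpx1, and without wildtype replicate 3 it was -0.60 and -0.56. Without heterozygous replicate 1 it was -0.22 and -0.25. Scaling moved the same difference too, to -0.21 for Cat and -0.25 for Gpx1 under the same summed FPKM, and to -0.15 and -0.08 under quantile normalization.

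Sod1, the cytosolic copper and zinc enzyme that makes hydrogen peroxide from superoxide (chr16:90220754-90226329, plus strand), was at 493, 473 and 580.1 FPKM in knockout, at 476, 447 and 500.2 FPKM in heterozygous and at 425, 448 and 628 FPKM in wildtype libraries. Wildtype held both the lowest and the highest library. The log2 difference was 0.06 ± 0.16 in knockout versus wildtype, -0.05 ± 0.16 in heterozygous versus wildtype and 0.12 ± 0.16 in knockout versus heterozygous. Knockout was above heterozygous in each of the 3 same-numbered pairs, which held for Gpx4 too but for none of the other enzymes. Such pairs were not counted over all genes. No pairing is established, and knockout and heterozygous share a depth pattern by replicate number, so nothing is concluded from these pairs. With the replicate block limma gave an adjusted p of 0.9997 for the difference of knockout from heterozygous.

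Gpx4, which reduces lipid peroxides in membranes (chr10:80047166-80056439, plus strand), was at 463, 374 and 498 FPKM in knockout, at 398, 354 and 387 FPKM in heterozygous and at 392, 417 and 500.2 FPKM in wildtype libraries. Heterozygous libraries held the lowest value, and the groups overlapped. The log2 difference was 0.03 ± 0.15 in knockout versus wildtype and -0.19 ± 0.15 in heterozygous versus wildtype. In knockout versus heterozygous it was 0.22 ± 0.15 (-0.11 to 0.55), the largest of the 10 in that comparison. Knockout was higher in each of the 3 same-numbered pairs, as for Sod1 but for none of the other enzymes. Again this was not counted over all genes, and no pairing is established. The difference lay between 0.13 and 0.34 with any 1 library left out. It did not pass the test in the limma fit with the replicate block either (adjusted p = 0.9997).

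Prdx3, the mitochondrial peroxiredoxin (chr19:60864051-60874556, minus strand), was at 203, 158 and 199 FPKM in knockout, at 165, 176 and 175 FPKM in heterozygous and at 165, 199.9 and 213 FPKM in wildtype libraries. Knockout replicate 2 was the lowest library and wildtype replicate 3 the highest. Its difference was -0.05 ± 0.14 in knockout versus wildtype, -0.15 ± 0.14 in heterozygous versus wildtype and 0.11 ± 0.14 in knockout versus heterozygous.

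Prdx4, the peroxiredoxin of the endoplasmic reticulum (chrX:155323918-155340754, minus strand), was at 26.7, 25.5 and 33.0 FPKM in knockout, at 27.4, 23.3 and 33.9 FPKM in heterozygous and at 23.5, 24.8 and 41.4 FPKM in wildtype libraries. Prdx6, which also reduces phospholipid peroxides (chr1:161240112-161251219, minus strand), was at 19.1, 23.3 and 21.9 FPKM in knockout, at 20.2, 17.6 and 21.5 FPKM in heterozygous and at 17.7, 19.0 and 29.1 FPKM in wildtype libraries. Wildtype replicate 3 was the highest library for both, as it was for Sod1. All differences between genotypes for these genes lay between -0.12 and 0.11, with standard errors of 0.23 for Prdx4 and 0.19 for Prdx6. Prdx6b, a near-identical copy of Prdx6, had 0.0255 FPKM in 1 library and a value of 0 in the other 8.

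Prdx1, a cytosolic peroxiredoxin of most cells (chr4:116685544-116700822, plus strand), was at 40.5, 54.1 and 49.1 FPKM in knockout, at 47.4, 49.8 and 50.9 FPKM in heterozygous and at 53.5, 45.2 and 49.2 FPKM in wildtype libraries. It varied least of the 10 over the 9 libraries, with a coefficient of variation of 8.56%. Its differences were -0.05 ± 0.13, 0.0048 ± 0.13 and -0.05 ± 0.13 in knockout versus wildtype, heterozygous versus wildtype and knockout versus heterozygous.

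Prdx5, found in mitochondria, peroxisomes and cytosol (chr19:6906697-6910106, minus strand), varied most, with a coefficient of variation of 30.9%. It was at 32.1, 69.4 and 50.5 FPKM in knockout, at 39.0, 34.3 and 64.6 FPKM in heterozygous and at 66.0, 47.3 and 33.5 FPKM in wildtype libraries. Low and high libraries occurred in every group, and the largest value was 2.16 times the smallest. The counting error was smaller than this: the 95% Poisson interval ran from 63.1 to 76.1 FPKM in knockout replicate 2 and from 28.6 to 35.9 FPKM in knockout replicate 1, and covers counting error only. The log2 difference was 0.03 ± 0.34 in knockout versus wildtype, with an interval of -0.74 to 0.81, -0.09 ± 0.34 in heterozygous versus wildtype and 0.13 ± 0.34 in knockout versus heterozygous. Prdx5 shares 409 exonic bases with the opposite-strand gene Trmt112, which was at 18.0 to 27.9 FPKM.

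The levels of 4 genes separated the shallower from the deeper libraries without overlap. Cat was at 639 to 771 FPKM in the shallower and 412 to 526 FPKM in the deeper libraries, and Gpx1 at 2236 to 2605 and 1359.9 to 1888 FPKM, so that the means differed 1.53-fold and 1.48-fold. Sod1 was at 425 to 473 FPKM in the shallower and 476 to 628 FPKM in the deeper libraries, and Prdx4 at 23.3 to 25.5 and 26.7 to 41.4 FPKM, with ratios of the means of 0.837 and 0.748. Of all tested genes, 5.66% were higher in every shallower library and 6.86% lower in every one (12.5% in either direction). Under the same summed FPKM, Gpx4 was also lower without overlap, against 14.5% of all tested genes, and 3.12% were higher. These 2 sets of libraries were defined by depth and not by genotype, and no test was made between them. Erythroid markers summed to 23421 to 26367 FPKM in shallower and 13891 to 17708 FPKM in deeper libraries. That sum is carried largely by Hbb-bs, Alas2 and Hba-a1 and so largely repeats the globin share. Other erythroid markers did not follow it: Gata1, the erythroid transcription factor, was at 171 to 219 FPKM in shallower and 196 to 254 FPKM in deeper libraries, and Tfrc at 351 to 481 and 447 to 596 FPKM. Summed T and natural killer cell markers also separated the sets, at 87.8 to 159 FPKM in shallower and 1.47 to 60.7 FPKM in deeper libraries, and platelet markers did so the other way, at 33.7 to 37.3 and 38.5 to 54.5 FPKM. Depth, globin share and these 2 marker sums moved together over the libraries and cannot be told apart, and their part in the levels was not tested. In bulk libraries, a change in the number of cells of a type and a change in RNA per cell cannot be told apart either.

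**Figure D3:**
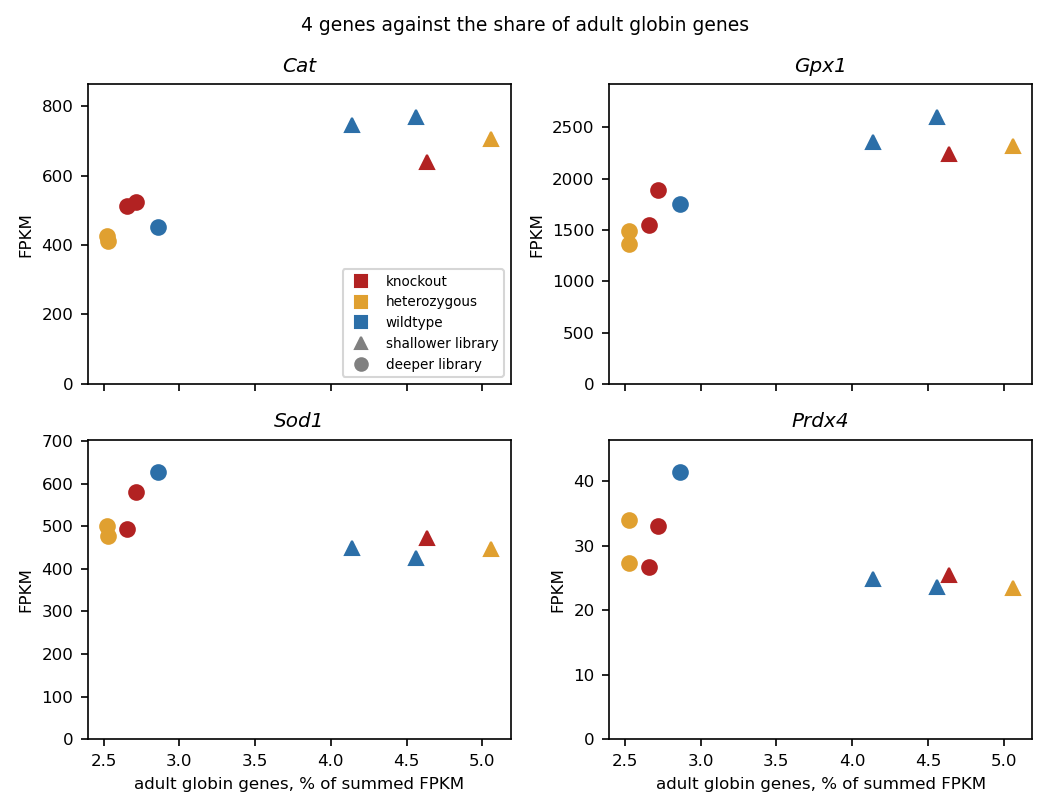
FPKM of 4 enzymes against the share of adult globin genes in the summed FPKM, 1 point per library, coloured by genotype, with triangles for shallower and circles for deeper libraries. Cat and Gpx1 are higher, and Sod1 and Prdx4 lower, in the 4 libraries with a share of 4.14 to 5.06% than in the 5 with 2.52 to 2.86%.

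Ratios of 2 genes within a library do not depend on the factor by which each library was scaled. Gpx1 over Cat stayed at 3.01 to 3.87 in the 9 libraries, and Sod1 over Prdx4 at 14.7 to 19.2. Cat over Sod1 was 1.35 to 1.81 in the shallower and 0.721 to 1.04 in the deeper libraries. Since Cat was higher and Sod1 lower in every shallower library, that ratio had to separate the sets. Prdx2 over Gpx1 was 1.09 to 1.27 in the shallower and 1.51 to 1.62 in the deeper libraries. By genotype, Cat over Sod1 averaged 1.10 ± 0.23 in knockout, 1.10 ± 0.41 in heterozygous and 1.40 ± 0.59 in wildtype libraries (SD, n = 3 each), which overlapped. A ratio shows unequal levels and not which gene differed.

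**Figure D4:**
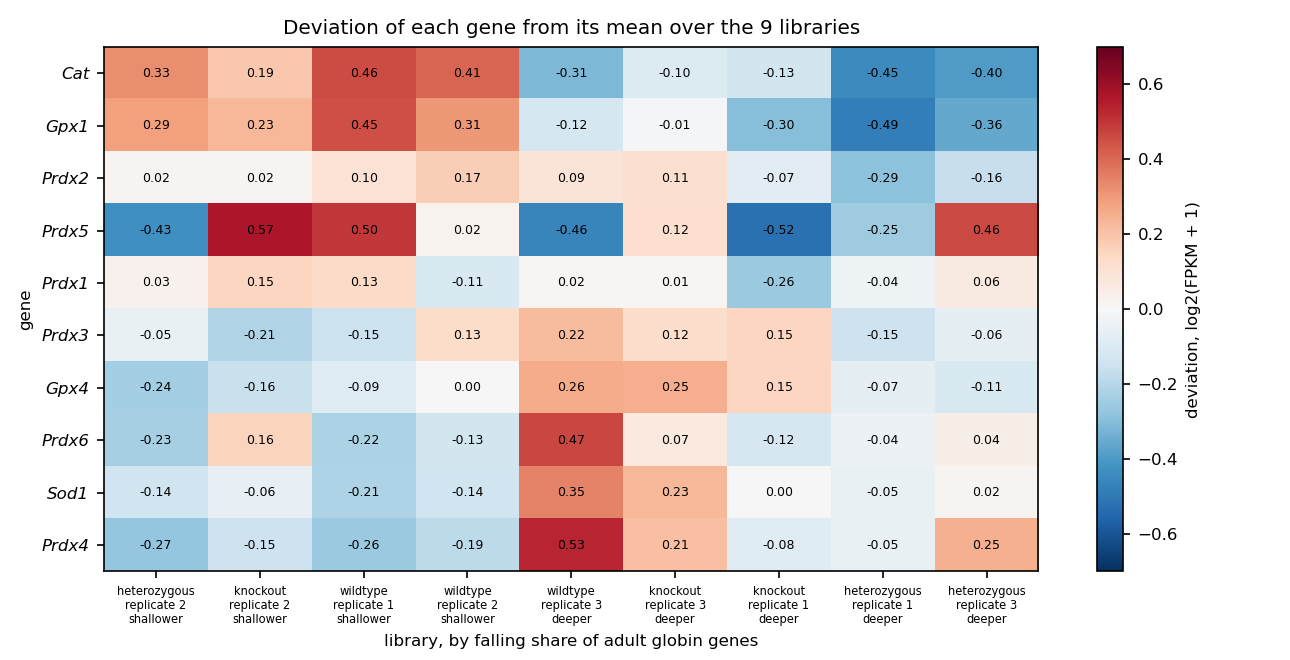
Deviation of each gene from its mean over the 9 libraries, on the log2(FPKM + 1) scale, with libraries ordered by falling share of adult globin genes, so that shallower libraries are on the left. Cat and Gpx1 are above their mean in the 4 shallower libraries and at or below it in the 5 deeper ones, and Prdx5 goes its own way.

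Prdx5 followed another set of libraries. Prdx5 and Prdx1 both had their 3 highest values in knockout replicate 2, wildtype replicate 1 and heterozygous replicate 3. Prdx5 was at 69.4, 66.0 and 64.6 FPKM there. These were also the 3 libraries with the highest sums of macrophage markers (1402, 1345 and 881 FPKM in the same order), of B cell markers (902, 1451 and 864 FPKM) and of NADPH oxidase genes (260.4, 272 and 192 FPKM). For Prdx1 the order was within counting error. Heterozygous replicate 3 was at 50.9 FPKM of Prdx1, with a Poisson interval of 47.9 to 54.0 FPKM. That interval covers the Prdx1 values of heterozygous replicate 2, wildtype replicate 3 and knockout replicate 3 (49.8, 49.2 and 49.1 FPKM). Wildtype replicate 3, with 33.5 FPKM of Prdx5, had 137 FPKM of macrophage markers, and knockout replicate 1, with 32.1 FPKM, had 417 FPKM. Heterozygous replicate 2, with 34.3 FPKM of Prdx5, had 692 FPKM of macrophage markers. Heterozygous replicate 1 and wildtype replicate 2 had 829 and 804 FPKM of these markers, near the 881 FPKM of heterozygous replicate 3. Their Prdx5 was lower than there, at 39.0 and 47.3 FPKM. Knockout replicate 3 had 581 FPKM of macrophage markers and 50.5 FPKM of Prdx5. None of the macrophage or B cell markers passed the test between genotypes, and the part of such cells in the level of Prdx5 was not tested. The B cell marker Pax5 and the T cell markers Cd3d and Cd3g were listed at 0 in wildtype replicate 3, and no marker was at 0 in all libraries.

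**Figure D5:**
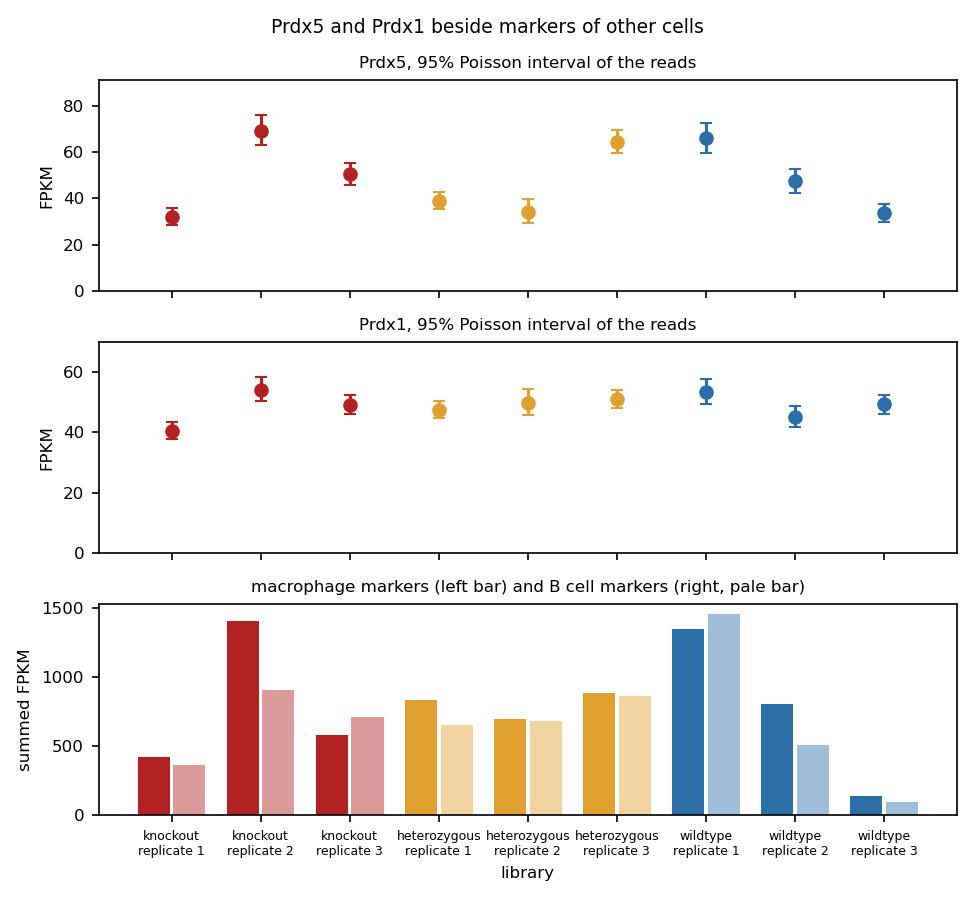
The upper 2 panels show FPKM of Prdx5 and Prdx1 in each library with 95% Poisson intervals of the reads, and the lowest panel the summed FPKM of macrophage markers (left bars) and B cell markers (right, pale bars), with libraries from knockout to wildtype along the axis. The 3 libraries with 881 to 1402 FPKM of macrophage markers have 64.6 to 69.4 FPKM of Prdx5, while the other 6 have 32.1 to 50.5 FPKM. Among these 6, heterozygous replicate 1 and wildtype replicate 2 have 829 and 804 FPKM of macrophage markers, close to the 881 FPKM of heterozygous replicate 3.

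Other genes that feed or limit these enzymes were read from lists, with 0 genes called in any comparison. The superoxide dismutases and glutathione peroxidases outside the 10 had 1 tested gene of 8, Sod2, the mitochondrial manganese enzyme, at 17.3 ± 2.78 FPKM in knockout, 15.9 ± 1.74 in heterozygous and 18.8 ± 1.66 in wildtype libraries (SD, n = 3 each). Gpx5 and Gpx6 were listed at 0 in all libraries, and Gpx3 averaged 0.637 ± 0.292, 0.556 ± 0.259 and 0.410 ± 0.267 FPKM in knockout, heterozygous and wildtype.

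For thioredoxin and sulfiredoxin recycling, which restores peroxiredoxins, 9 of 10 genes were tested, and the log2 difference was above 0 for 6 in knockout versus wildtype (median 0.01) and for 4 in heterozygous versus wildtype (median -0.12). Its most abundant members were Txnrd2, the mitochondrial thioredoxin reductase, at 293 ± 41.6, 248 ± 14.6 and 290.1 ± 17.2 FPKM, and Txn1, thioredoxin, at 160.2 ± 13.4, 146 ± 20.3 and 159 ± 22.2 FPKM in knockout, heterozygous and wildtype. For glutathione supply and recycling, 11 of 12 genes were tested, with 7 above 0 in knockout versus wildtype and 6 in heterozygous versus wildtype (median 0.02 in each). Here Glrx5, a mitochondrial glutaredoxin of iron-sulfur cluster assembly, was at 504 ± 15.7, 453 ± 65.3 and 538 ± 54.2 FPKM, and Gclm, a subunit of the first enzyme of glutathione synthesis, at 476 ± 10.8, 429 ± 47.3 and 470.3 ± 49.9 FPKM.

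For selenoprotein synthesis, on which Gpx1 and Gpx4 depend, 8 of 8 genes were tested and 3 were above 0 in knockout versus wildtype and in heterozygous versus wildtype (medians -0.04 and -0.08). Scly, selenocysteine lyase, was at 33.8 ± 1.73, 38.4 ± 3.21 and 36.9 ± 14.0 FPKM and Sephs1 at 14.0 ± 1.81, 13.4 ± 0.736 and 14.1 ± 1.09 FPKM. Among the regulators NRF2, BACH1 and FOXO3 and their partners 8 of 10 genes were tested, with 7 above 0 in knockout versus wildtype (median 0.07) and 3 in heterozygous versus wildtype (median -0.02). Nfe2, an erythroid relative of NRF2, was at 317 ± 67.3, 269.7 ± 32.0 and 298 ± 38.1 FPKM, and Foxo3, a transcription factor of antioxidant genes in erythroblasts, at 106 ± 23.5, 104 ± 6.59 and 106 ± 9.51 FPKM.

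For NRF2 target genes, 9 of 10 were tested, with 3 above 0 in knockout versus wildtype (median -0.09) and 2 in heterozygous versus wildtype (median -0.12). The ferritin chains Fth1 and Ftl1 were the most abundant, at 2257 ± 105, 2212 ± 385 and 2403 ± 65.1 FPKM and at 1622 ± 588, 1568 ± 558 and 1707 ± 330.5 FPKM. NADPH oxidase subunits, which make superoxide in phagocytes, had 6 of 7 tested genes, with 5 above 0 in knockout versus wildtype (median 0.33) and 6 in heterozygous versus wildtype (median 0.35). Cybb, its catalytic subunit, was at 8.05, 24.4 and 16.7 FPKM in knockout, at 17.8, 14.7 and 22.5 FPKM in heterozygous and at 27.1, 15.1 and 3.48 FPKM in wildtype libraries, lowest in wildtype replicate 3. The signs of this list against wildtype changed when wildtype replicate 3 was left out: NADPH oxidase subunits were then above 0 for 1 of 6 in knockout versus wildtype (median -0.47) and 0 of 6 in heterozygous versus wildtype (median -0.29). Without knockout replicate 2 they were above 0 for 4 of 6 in knockout versus wildtype, with a median of 0.02.

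Markers of other blood cells moved with single libraries too. Macrophage markers were above 0 for 10 of 10 in knockout versus wildtype and 9 of 10 in heterozygous versus wildtype (medians 0.32 and 0.58), and for 0 of 10 in both without wildtype replicate 3 (medians -0.67 and -0.41). B cell markers were above 0 for 10 of 10 in both (medians 0.39 and 0.71), and for 0 of 10 in both without that library (medians -0.50 and -0.21). T and natural killer cell markers were above 0 for 8 of 9 in both (medians 0.20 and 0.34), and for 0 of 9 without it (medians -0.78 and -0.81). Neutrophil markers were above 0 for 9 of 10 in knockout versus wildtype (median 0.09) and for 0 of 10 without it (median -0.45). Leaving out knockout replicate 2 instead also moved knockout versus wildtype. Macrophage markers were then above 0 for 2 of 10 (median -0.28) and neutrophil markers for 2 of 10 (median -0.17). B cell markers were above 0 for 8 of 10 (median 0.17) and T and natural killer cell markers for 4 of 9 (median -0.07). In heterozygous versus wildtype neutrophil markers were below 0 for 9 of 10 (median -0.56), and in knockout versus heterozygous above 0 for 10 of 10 (median 0.76). Without heterozygous replicate 1 these medians were -0.15 and 0.23. Without wildtype replicate 3 the heterozygous versus wildtype median moved further from 0, to -1.17, with 0 of 10 above 0. The 2 tested platelet markers were above 0 in both comparisons with wildtype (medians 0.30 and 0.06). Without wildtype replicate 3, 2 and 1 of them were above 0 (medians 0.26 and 0.02). Erythroid markers were below 0 for 8 of 9 in knockout versus wildtype (median -0.08) and 9 of 9 in heterozygous versus wildtype (median -0.16), and above 0 for 9 of 9 in knockout versus heterozygous (median 0.10), the direction of most of the 10 enzymes. Without knockout replicate 2, erythroid markers were above 0 for 4 of 9 in knockout versus wildtype (median -0.03). Without heterozygous replicate 1, 6 of 9 were above 0 in knockout versus heterozygous (median 0.03). In heterozygous versus wildtype, 1 of 9 was above 0 without wildtype replicate 3 (median -0.20). The part of any marker in the enzymes' differences was not tested, and no marker passed the test.

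The gene most like each enzyme over the 9 libraries was found by Pearson r on log2(FPKM + 1), as a description over libraries that share their depth pattern. Prdx2 was closest to Taldo1 (r = 0.93), Ube2d3 (0.92) and Glrx5 (0.92). Gpx1 was closest to Map1lc3b (0.98), Cat to Psme3 (0.99), Sod1 to Vps35 (0.97), Gpx4 to Hsdl2 (0.98) and Prdx3 to Arf6 (0.96). Prdx1 was closest to Uvrag (0.97), Prdx5 to Ifitm2 (0.96), Prdx4 to Uqcrfs1 (0.97) and Prdx6 to Adam33 (0.96). With 9543 genes searched over 9 libraries, the highest r is large by construction.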

How the data were processed

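The deposited data are a single table, made by the authors, with FPKM for 20368 genes and a column for each of 9 libraries. TopHat, Picard, DESeq2 and the build mm10 are named, per the submitters' processing notes, without roles or versions. Read pairing, strand use and annotation: not given in the sources used here. FPKM may thus be RPKM. Whole reads were recovered from the steps of the values for all 14147 genes above 0 in at least 2 libraries (100%, within 0.05 of a read). No other column was used. The depth was 7.05 to 14.23 M reads per library, and intervals cover counting error only.

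The low-value filter kept 9543 genes, those reaching 1 FPKM in 3 or more libraries. Limma 3.58.1 in R 4.3.3 fitted log2(FPKM + 1), a pseudocount of 1, over all 9 libraries (lmFit, eBayes with a trend), with 2-sided Benjamini-Hochberg adjusted p below 0.05 over all tested genes. Fold changes of low genes are understated on this scale. The smallest 2-sided p of an exact permutation test, 3 libraries against 3, is 0.1. Promoters are RefSeq (GRCm38.p6), and positions are GENCODE M21 on mm10, to which 20028 identifiers (98.3%) matched. Python 3.11.15, numpy 2.4.6, pandas 2.3.3, scipy 1.17.1 and matplotlib 3.10.9 were used.

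The 10 genes and all lists were chosen with earlier results of these data known. Named genes were the 10, the 2 most abundant genes of each list where none was called, the genes most like each enzyme, and listed copies, with Dhh and Tfrc as checks of the labels. Gpx5, Gpx6, Cybb, Pax5, Cd3d, Cd3g, Hba-a1, Gata1 and the overlapping genes were named after their values were seen. The labels number the replicates but give nothing that same-numbered libraries share. Deviations from group means in libraries numbered 1, 2 and 3 correlated at 0.20, 0.18 and 0.41 between knockout and heterozygous. They were -0.57, 0.51 and 0.33 between knockout and wildtype and 0.13, 0.18 and 0.0014 between heterozygous and wildtype. In both knockout and heterozygous, replicate 2 was shallower and replicates 1 and 3 deeper. A pairing and this shared depth pattern cannot be told apart, so no pairing is established. Same-numbered libraries are set side by side as a description only. The values and errors given are from the fit without the replicate block unless the block is named. Alternatives covered pseudocounts, filters, scaling, the variance model, the libraries in the fit, the replicate block, voom on recovered reads, depth and marker covariates, and left-out libraries.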

Additional observations from a re-analysis of the deposited data

How the results depend on the processing

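No gene and none of the 10 enzymes was called under any of 13 alternatives or with any library left out, and the lowest adjusted p of an enzyme was 0.21. Over these fits, 14 enzyme values had an unadjusted p under 0.05 by limma. Among them was Sod1 in knockout versus wildtype with wildtype replicate 3 and knockout replicate 2 left out together. Leaving out wildtype replicate 3 and knockout replicate 2 together raised the genes at an unadjusted p under 0.05 to 2073, 704 and 1545 in knockout versus wildtype, heterozygous versus wildtype and knockout versus heterozygous, against 43, 113 and 56. With the replicate block 0 genes were called, every enzyme kept its difference, and the genes at an unadjusted p under 0.05 were 56, 161 and 66. The block changed no call. Of 390 values under the 13 alternatives 34 reversed; all were uncalled and the cause was not tested.

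Under the same summed FPKM, these log2 differences reversed. In knockout versus wildtype, Prdx1 was 0.017, Prdx3 0.018, Prdx4 0.027 and Prdx6 0.060. In heterozygous versus wildtype, Prdx4 was 0.088, Prdx5 0.050, Prdx6 0.022 and Sod1 0.089. In knockout versus heterozygous, Prdx4 was -0.061. Under quantile normalization, Prdx2 was 0.021 and Prdx6 0.033 in knockout versus wildtype, Prdx2 0.027, Prdx4 0.0073, Sod1 0.16 and Gpx4 0.016 in heterozygous versus wildtype, and Prdx2 -0.0064, Prdx4 -0.037 and Sod1 -0.016 in knockout versus heterozygous. Voom gave Prdx4 -0.0021 in knockout versus heterozygous. The depth covariate gave Gpx4 -0.022 in knockout versus wildtype and Prdx4 -0.0024 in knockout versus heterozygous. The marker covariate gave Prdx4 0.044, Prdx5 -0.075 and Prdx6 0.053 in knockout versus wildtype, and Prdx1 -0.0090 and Prdx4 0.012 in heterozygous versus wildtype. With wildtype replicate 3 and knockout replicate 2 left out, Prdx3 was 0.15, Prdx4 0.29, Prdx5 -0.46 and Prdx6 0.15 in knockout versus wildtype. Prdx4 was then 0.20, Prdx6 0.098 and Sod1 0.12 in heterozygous versus wildtype, and Prdx5 -0.13 in knockout versus heterozygous.

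Leaving out 1 library at a time reversed 32 of 270 values. In knockout versus wildtype the ranges were -0.061 to 0.15 for Gpx4, -0.14 to 0.067 for Prdx1, -0.15 to 0.069 for Prdx3, -0.18 to 0.22 for Prdx4, -0.22 to 0.32 for Prdx5, -0.13 to 0.21 for Prdx6 and -0.046 to 0.23 for Sod1. In heterozygous versus wildtype they were -0.056 to 0.064 for Prdx1, -0.20 to 0.20 for Prdx4, -0.36 to 0.15 for Prdx5, -0.25 to 0.098 for Prdx6 and -0.16 to 0.12 for Sod1. In knockout versus heterozygous they were -0.14 to 0.062 for Prdx1, -0.11 to 0.15 for Prdx4 and -0.13 to 0.41 for Prdx5.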
